A study of Mus musculus with 6 samples.

Results

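Amino acid transporter genes were described in CD8+ T lymphocytes with low CD44 from mice with the sanroque mutation and from wild-type mice. The members were the genes whose symbol in the array's annotation begins with Slc1a, Slc3a, Slc6a, Slc7a, Slc36a, Slc38a or Slc43a, which gave 64 of the 19938 genes with a probe set of their own. Of the 64, 62 are members of the carrier families. The other two, Slc6a19os and Slc7a6os, are genes on the strand opposite a carrier gene that share only its name. Of the members 62 had 1 probe set, and for the 2 others the probe set with the highest mean was used. Membership used no measured value, although Slc6a19 was known from earlier results of these data to be low in sanroque cells.

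The 6 samples were T cells with low surface CD44 and with CD8, isolated with a flow cytometer from the spleen and lymph nodes of 10-week-old mice on a C57BL/6 background. The 3 wild-type samples were Roquin+/+. The 3 sanroque samples were Roquinsan/san, homozygous for the sanroque point mutation in Roquin, a protein encoded by Rc3h1 that binds and represses mRNAs. No sample received a further treatment per the labels. Each sample was hybridised to an Affymetrix array of its own, and the titles call the samples biological replicates, without giving the sex of the mice or whether mice were pooled.

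T cells take amino acids from outside through carriers whose number in the membrane rises sharply when a naive cell is activated. Large neutral amino acids such as leucine enter through heteromeric exchangers, in which an SLC7 light chain carries the substrate and an SLC3 heavy chain brings the pair to the surface. The exchange is fed by sodium-coupled SLC1 and SLC38 carriers that load the cell with glutamine, alanine and serine. Amino acid supply is read by mTORC1, the kinase complex that couples nutrients to growth, and shortage is read by the kinase GCN2, which acts through the transcription factor ATF4.

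Most of the family did not pass the test between genotypes. By limma's test over all genes, with an adjusted p (Benjamini-Hochberg) below 0.05 as the threshold, 2 members were higher in sanroque cells (Slc43a3 and Slc43a1), 2 were lower (Slc6a19 and Slc7a6os) and 60 did not pass. Over all genes 5.77% passed in either direction, 3.26% higher and 2.51% lower, so the members' share of 6.25% lies near the background and is not a result about the family. Of 315 other Slc genes, 12 passed, or 3.81%. The median log2 fold of the 64 genes was -0.02, beside -0.03 over all genes, where a log2 fold is the sanroque minus the wild-type mean of log2 intensity. The 3 and 3 arrays did not overlap for 11 members, or 17.2%, against 22.7% of all genes. Of these 11, 6 were higher in sanroque and 5 lower, where 9.46% and 13.2% of all genes were.

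The sequence just before the start site is shown for the called genes that have an entry in the RefSeq promoter table (build GRCm38.p6), so that the gene that fell most can be set beside a gene that rose. Each run is the 250 bases before the annotated start, read toward the gene. Capitals mark matches on either strand to the ATF4 response element TGATGNAA, the MYC E-box CACGTG, the TATA box TATAAA or the GC box GGGCGG, and no 2 matches overlapped in these windows.
Slc6a19, chr13:73692637-73692886, minus strand: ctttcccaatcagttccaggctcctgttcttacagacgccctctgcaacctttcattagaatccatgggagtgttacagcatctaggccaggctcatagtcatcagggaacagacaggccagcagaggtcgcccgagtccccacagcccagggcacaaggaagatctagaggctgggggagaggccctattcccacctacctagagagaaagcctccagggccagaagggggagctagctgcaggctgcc
Slc43a1, chr2:84840073-84840322, plus strand: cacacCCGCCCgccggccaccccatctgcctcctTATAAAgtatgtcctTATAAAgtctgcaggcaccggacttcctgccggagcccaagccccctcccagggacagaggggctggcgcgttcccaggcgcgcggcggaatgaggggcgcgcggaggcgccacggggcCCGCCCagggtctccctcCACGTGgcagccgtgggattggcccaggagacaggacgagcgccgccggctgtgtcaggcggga
Slc7a6os, chr8:106210934-106211183, minus strand: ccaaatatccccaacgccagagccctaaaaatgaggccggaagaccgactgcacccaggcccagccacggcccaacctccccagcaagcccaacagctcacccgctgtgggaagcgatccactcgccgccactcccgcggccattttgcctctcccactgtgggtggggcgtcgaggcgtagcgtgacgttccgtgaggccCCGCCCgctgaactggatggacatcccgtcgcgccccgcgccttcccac
The Slc6a19 window had 0 matches and 3 CpG dinucleotides at 57.6% G+C, against a median of 6 CpG and 52.4% over 32851 windows. The Slc43a1 window had 24 CpG and matches to the E-box, TATA box and GC box, and the Slc7a6os window had 23 CpG and 1 GC box. The TATA box matches of Slc43a1 lay 216 to 211 and 201 to 196 bases before the start. A window was found for 47 of the 64 members. A GC box was in 29 of them (61.7%), an E-box in 9 (19.1%), a TATA box in 6 (12.8%) and the ATF4 element in 3 (Slc6a21, Slc7a7 and Slc7a11). Counted by gene in the same way, 35.4%, 6.86%, 14.3% and 3.91% of 27025 genes, noncoding genes included, had these motifs in a window. Counted by window, the shares were 32.7%, 6.02%, 12.4% and 3.45%. A match is a string of letters and not a measured site.

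The mean level served to mark genes not above the level of olfactory receptor genes. The mark was the 95th percentile of the mean log2 intensity of 1027 olfactory receptor genes, which T cells are not known to express, at 5.05. Of the members 33 lay above it, or 51.6%, against 62.5% of all genes, and 31 did not. The members nearest the mark were Slc6a11 (5.07) above it and Slc1a7 (4.97) below it. At a stricter mark of 6, 18 members remained, and 17 lay above the 99th percentile of olfactory receptor genes (6.34). Probe sets differ in how strongly they bind their target, so the order of levels is one of intensity and not of transcript number.

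**Figure D1:**
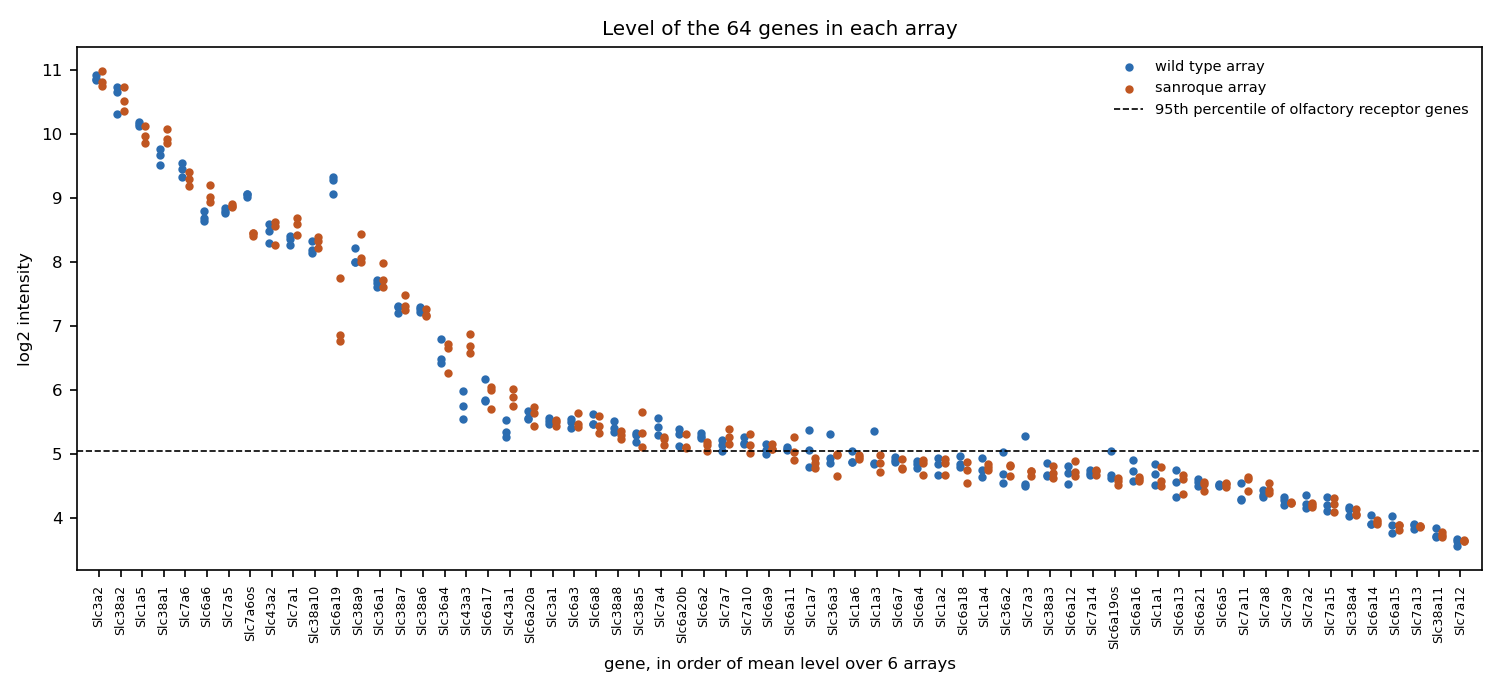
Log2 intensity (vertical axis) of each of the 64 genes in the 3 wild-type and 3 sanroque arrays (points), in order of the mean over 6 arrays, with the dashed line at 5.05, the 95th percentile of olfactory receptor genes. The arrays of the genotypes lie together for most genes and apart for Slc6a19, Slc7a6os and Slc43a3.

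The cells were first checked against their label. Cd8a, which encodes a chain of the CD8 coreceptor, read 13.02 ± 0.03 in wild-type arrays against 13.00 ± 0.02 in sanroque, and 0 of 9 measured CD8 T cell genes rose while 1, Cd3d, fell. Cd44, whose protein was to be low at the surface by the label, went against it in its RNA: it read 5.98, 6.43 and 6.34 in wild-type arrays against 7.34, 7.70 and 7.90 in sanroque, with no overlap. It rose by 1.40 ± 0.17 on the log2 scale (SE; limma, adjusted p = 0.00669). Summed intensity over the CD8 T cell list was 43008 to 44393 in wild-type arrays against 39010 to 40843 in sanroque. Markers of other cells moved with genotype: 7 of 11 B cell genes and 12 of 16 monocyte, macrophage and neutrophil genes were higher in sanroque and 0 lower. The summed intensity of the B cell list was 1966 to 4730 in wild-type arrays against 7212 to 8919 in sanroque, and that of the myeloid list 2097 to 2987 and 9425 to 14354. Activated and effector genes, Cd44 among them, were higher in 8 of 10 cases, with a summed intensity of 1277 to 1544 in wild-type arrays against 10251 to 18936 in sanroque. Cycling genes were higher in 7 of 11, plasma cell genes in 4 of 6 and dendritic cell genes in 1 of 8. CD4 T cell genes were higher in 3 of 6 (Zbtb7b, Ctla4 and Ikzf2). Cd4 itself (log2 fold 0.95; limma, adjusted p = 0.0783), Foxp3 and Cd40lg did not pass. NK cell genes were higher in 3 of 7 (Klre1, Fcgr3 and Eomes), while Ncr1 (-0.12), Klrb1c, Adamts14 and Adgrg3 did not pass. Of the erythroid, platelet and stromal genes 0 passed by limma, with 1, an erythroid gene, at an unadjusted p below 0.05. Over all the lists Cd14, Cd40lg, Ncr1, Klre1, Tnfrsf17, Xcr1, Clec9a, Klf1, Pf4, Ppbp, Cdh5, Pdgfrb, Birc5 and Bub1 were not above the olfactory receptor level. Of 7 measured naive T cell genes, Il7r and Dapl1 fell. Xist, a transcript of female cells, read 11.20 in sanroque replicate 1 and 4.02 to 4.17 elsewhere. Rc3h1 itself had a log2 fold of 0.14 ± 0.10 (SE; limma, adjusted p = 0.564), which does not check the labels because the allele is a point mutation. In sorted bulk cells, fewer cells that express a gene and less RNA per cell cannot be told apart.

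Slc6a19 fell most among the members, and its log2 fold was the 2nd lowest of all 19938 genes. It encodes B0AT1, a sodium-coupled carrier of neutral amino acids best known from the brush border of intestine and kidney, where its loss causes Hartnup disorder. On the log2 scale the wild-type arrays read 9.05, 9.28 and 9.33 and the sanroque arrays 6.76, 6.87 and 7.75. In linear intensity these were 532, 624 and 643 against 109, 117 and 216. The groups did not overlap, and sanroque replicate 3 stood between the other sanroque arrays and wild type. The group means were 9.22 ± 0.15 and 7.13 ± 0.54 (SD, n = 3 in each group), a 4.28-fold lower level with a log2 fold of -2.10 ± 0.25 (SE; 95% interval -2.68 to -1.51; limma, adjusted p = 0.00651).

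The fall passed whichever single array was left out, at log2 folds of -2.41 to -1.91 and adjusted p-values of up to 0.0352 (limma). Without sanroque replicate 1, the array with high Xist, it was -1.91 (limma, adjusted p = 0.0182). The B cell, myeloid and activated or effector lists given above were higher on the same arrays, and their part in the fall was not tested. The B cell list's median log2 intensity was 6.70 to 7.91 in wild type, and 9.03, 8.78 and 8.91 in sanroque replicates 1, 2 and 3, where replicate 3 lay between the others. The myeloid medians were 8.55, 8.32 and 8.42 in the same order. The activated and effector medians were 9.13, 9.59 and 8.51 in that order, beside 6.76, 6.87 and 7.75 for Slc6a19. With a score of other cells (the mean of B cell and myeloid levels) as a covariate, the log2 fold of Slc6a19 was -2.20 ± 0.99. It missed the threshold (limma, adjusted p = 0.650), as did all 19938 genes. The score ran from -1.27 to -0.45 in wild-type arrays and from 0.86 to 1.10 in sanroque. It followed genotype closely, so this fit cannot separate score from genotype.

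Neighbouring genes did not pass. The measured genes nearest Slc6a19 on chromosome 13 are Clptm1l, Tert and Slc6a18 on one side and Slc6a19os, Slc12a7 and Nkd2 on the other. By limma 0 of these 6 passed and 1, Slc12a7, had an unadjusted p below 0.05, with log2 folds between -0.36 (Slc12a7, a potassium chloride cotransporter; adjusted p = 0.140) and 0.05 (Clptm1l; adjusted p = 0.853). Slc6a19os read 4.63, 4.67 and 5.05 in wild-type arrays against 4.63, 4.58 and 4.52 in sanroque, below the olfactory receptor level, and missed the threshold (limma, adjusted p = 0.450). Slc6a18, a relative that lies beside it, averaged 4.80 and was not above the olfactory receptor level either.

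The relatives of Slc6a19 that carry neutral or imino acids gave little signal. Of the 9 members of this branch 4 were above the olfactory receptor level. Slc6a17, a vesicular carrier of neurons, read 5.95 ± 0.20 in wild-type arrays against 5.92 ± 0.19 in sanroque. The proline carriers Slc6a20a and Slc6a20b had log2 folds of 0.01 and -0.11. Slc6a14, Slc6a15, Slc6a16, Slc6a18 and Slc6a21 averaged between 3.88 and 4.80. The proteins that bring Slc6a19 to the surface in kidney and gut also gave little signal: Cltrn (collectrin) read 3.81 ± 0.03 in both genotypes, and Anpep, an aminopeptidase partner, had a log2 fold of 0.28 ± 0.09 at a mean of 4.61 and missed the threshold (limma, adjusted p = 0.150).

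**Figure D2:**
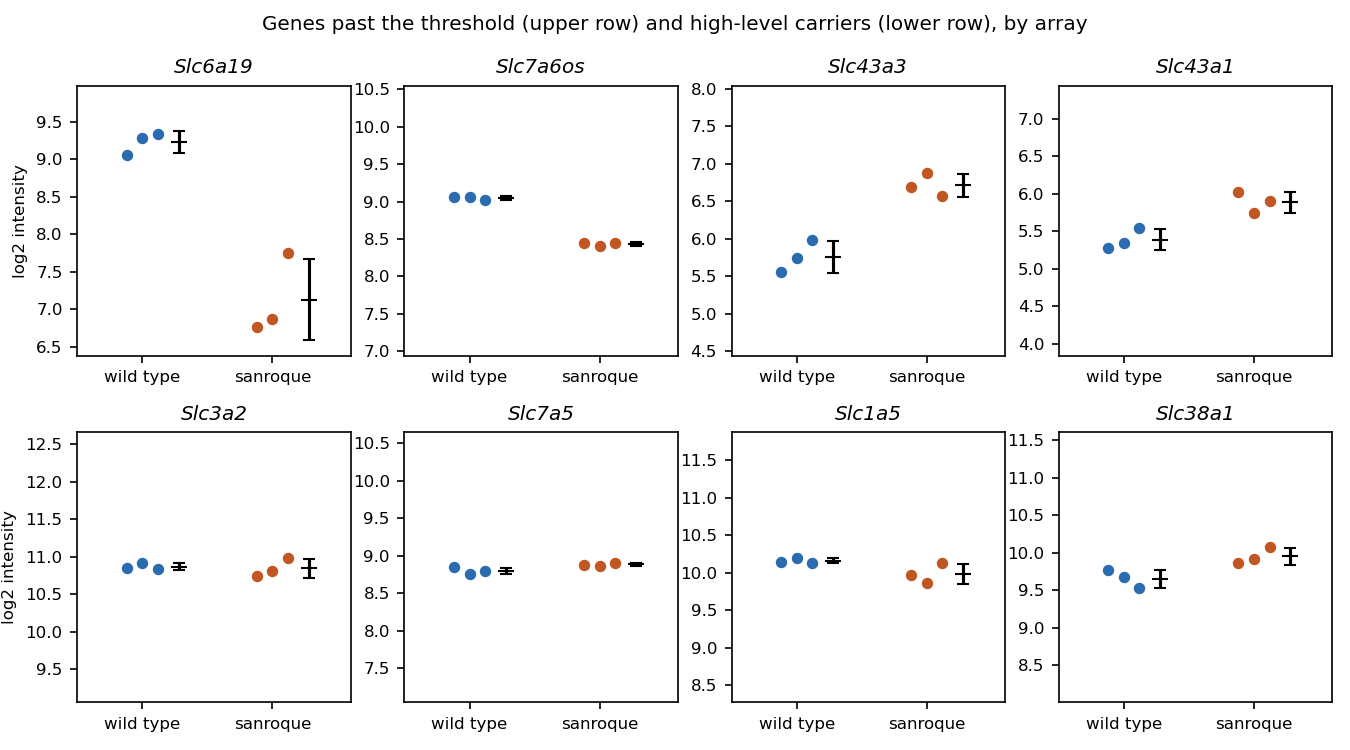
Log2 intensity by array (points) for the 4 called genes (upper row) and 4 carriers of high intensity (lower row), with the mean and SD of each genotype beside them and the same span of the vertical axis in every panel. Slc6a19 read 9.05 to 9.33 in wild-type arrays against 6.76 to 7.75 in sanroque, while Slc3a2 and Slc7a5 differed by less than 0.1 on this scale.

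The second lower gene was not a carrier. Slc7a6os, which lies opposite Slc7a6 and encodes a protein linked to nuclear import of RNA polymerase II, read 9.07, 9.06 and 9.02 in wild-type arrays against 8.45, 8.41 and 8.45 in sanroque. The spread within a group was small, with SDs of 0.03 and 0.02, and the groups were well apart. The log2 fold was -0.61 ± 0.06 (SE; 1.53-fold lower; limma, adjusted p = 0.00375), and it passed without each array in turn. Slc7a6 read 9.45, 9.54 and 9.33 in wild-type arrays against 9.29, 9.19 and 9.40 in sanroque, with overlap, and did not pass (log2 fold -0.15 ± 0.09; limma, adjusted p = 0.463), although it did with array weights (-0.20, adjusted p = 0.0406). On its other side Slc7a6os starts 121 bases from Prmt7, an arginine methyltransferase gene read the opposite way. Prmt7 had a log2 fold of -0.15 ± 0.07 and missed the threshold (limma, adjusted p = 0.346).

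The genes that rose were both of the SLC43 family, whose members carry their substrates without sodium, and both lie on chromosome 2 with Rtn4rl2 as the only measured gene between them. Slc43a3 encodes a carrier of purine nucleobases rather than amino acids. It read 5.55, 5.75 and 5.98 in wild-type arrays against 6.69, 6.88 and 6.58 in sanroque, with no overlap. The level was 1.94-fold higher (log2 fold 0.95 ± 0.13, 95% interval 0.65 to 1.25; limma, adjusted p = 0.0107), and the gene passed without each array in turn. Slc43a1 encodes LAT3, a carrier of leucine and other large neutral amino acids. It read 5.27, 5.35 and 5.54 in wild-type arrays against 6.02, 5.74 and 5.90 in sanroque, also with no overlap. Both genes were dim, with means over the 6 arrays of 6.24 (Slc43a3) and 5.64 (Slc43a1). These lay above the 95th percentile of olfactory receptor genes (5.05) but below the 99th (6.34). How far background signal affects the size of the 2 folds was not tested.

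Slc43a1 was 1.42-fold higher (log2 fold 0.50 ± 0.10; limma, adjusted p = 0.0378), a call near the threshold. It passed without wild type replicate 3 (adjusted p = 0.0381) but its p rose to 0.157 and 0.113 when wild-type array 1 or 2 was dropped, to 0.104, 0.0609 and 0.0675 when sanroque array 1, 2 or 3 was, and to 0.0519 with median centring. The last family member, Slc43a2 or LAT4, on chromosome 11, read 8.30, 8.59 and 8.49 in wild-type arrays against 8.63, 8.26 and 8.57 in sanroque (log2 fold 0.03 ± 0.12, negative at -0.02 with median centring). Of the measured genes nearest the pair, Rtn4rl2 (-0.10), Prg2 (0.15), Prg3 (0.01), P2rx3 (0.06), Smtnl1 (0.04) and Timm10 (-0.40) did not pass by limma, while Ube2l6, a conjugating enzyme of the interferon-induced modifier ISG15, rose by 1.29 ± 0.19. Timm10 was lower in sanroque with no overlap and missed the threshold narrowly (limma, adjusted p = 0.063). The myeloid and B cell lists rose on the same arrays as the SLC43 genes, as given above, and their part in these rises was not tested.

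**Figure D3:**
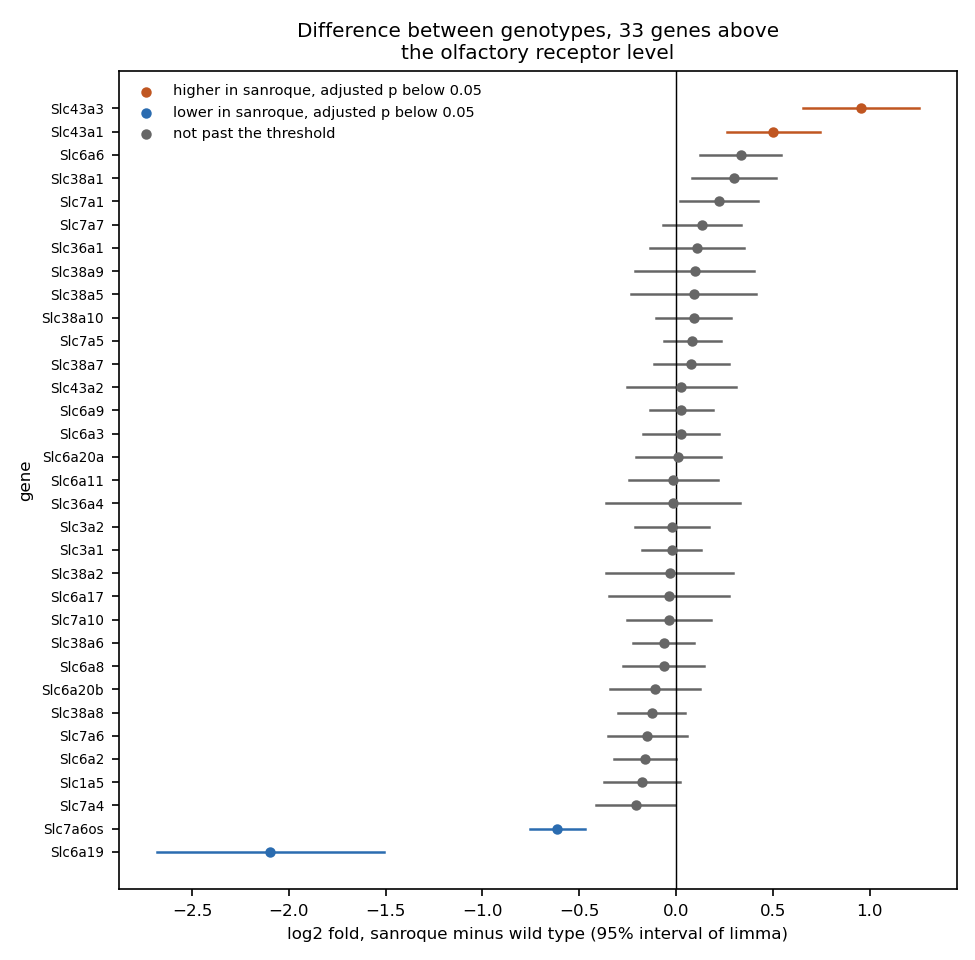
Log2 fold of sanroque minus wild type (horizontal axis) with limma's 95% interval for the 33 members above the olfactory receptor level, ordered by fold. Slc43a3 and Slc43a1 lie to the right and Slc6a19 and Slc7a6os to the left of 0 past the threshold, and the 29 others lie between -0.21 and 0.33.

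The exchangers that feed leucine into activated T cells differed little. Slc3a2, the CD98 heavy chain, read 10.85, 10.92 and 10.84 in wild-type arrays against 10.75, 10.81 and 10.99 in sanroque, and the groups overlapped. Its log2 fold was -0.02 with a 95% interval of -0.21 to 0.17 (limma). Slc7a5, the light chain LAT1 that pairs with it, read 8.84, 8.76 and 8.80 against 8.88, 8.86 and 8.91. Every sanroque array was above every wild-type array, but by little: the log2 fold was 0.08 ± 0.06, with an interval of -0.06 to 0.23 (limma, adjusted p = 0.596). Neither interval reaches a 1.5-fold change. Slc3a1, the heavy chain of kidney and gut, read 5.52 ± 0.04 and 5.49 ± 0.05.

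Among the other light chains, Slc7a7, the partner for export of cationic amino acids that macrophages express, had a log2 fold of 0.14 ± 0.09 at a mean of 5.20 and missed the threshold (limma, adjusted p = 0.516). Slc7a10, an exchanger of small neutral amino acids, had a log2 fold of -0.04. The cystine exchanger gene Slc7a11 averaged 4.47 and LAT2 (Slc7a8) 4.42, and neither they nor Slc7a9, Slc7a12, Slc7a13 and Slc7a15 were above the olfactory receptor level. Of the cationic carriers, Slc7a1 (CAT1), an entry route for arginine, read 8.41, 8.36 and 8.27 in wild-type arrays against 8.59, 8.43 and 8.68 in sanroque. The groups did not overlap, but the log2 fold of 0.22 ± 0.09 did not pass (limma, adjusted p = 0.213). Slc7a4, an orphan relative, had a log2 fold of -0.21 ± 0.09 at a mean of 5.32 and did not pass either (limma, adjusted p = 0.248), although it did with quantile normalization (-0.23, adjusted p = 0.0477).

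The glutamine carriers differed in the sign of their folds, and Slc1a5, Slc38a1 and Slc38a2 did not pass by limma. Slc1a5 (ASCT2), which exchanges glutamine, serine and alanine, read 10.15, 10.19 and 10.13 in wild-type arrays against 9.96, 9.86 and 10.12 in sanroque. All sanroque values were lower, by a log2 fold of -0.17 ± 0.08 (interval -0.37 to 0.02; limma, adjusted p = 0.336), and the gene passed with array weights (-0.22, adjusted p = 0.0307). Slc38a1 (SNAT1) went the other way, at 9.76, 9.67 and 9.52 in wild-type arrays against 9.86, 9.92 and 10.08 in sanroque. Its log2 fold was 0.30 ± 0.09 (interval 0.08 to 0.52; limma, adjusted p = 0.118), and its other, dimmer probe set gave 0.06. It passed with quantile normalization (0.33, adjusted p = 0.0363). Slc38a2 (SNAT2), which amino acid shortage induces in many cells, read 10.74, 10.65 and 10.31 against 10.36, 10.51 and 10.73, with full overlap (log2 fold -0.03, interval -0.36 to 0.29). The remaining SLC1 members, carriers of glutamate and the exchanger Slc1a4, averaged 4.66 to 4.97 and were not above the olfactory receptor level.

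The family members known from the lysosome, from which stored amino acids reach mTORC1, did not pass. Slc38a9, the arginine sensor of the lysosomal membrane, read 8.07 ± 0.13 in wild-type arrays against 8.17 ± 0.24 in sanroque, and its other probe set gave a log2 fold of -0.08 against 0.10. Slc38a7, which exports glutamine from lysosomes, had a log2 fold of 0.08 ± 0.08, and Slc36a1 (PAT1), a proton-coupled exporter of small amino acids, of 0.11 ± 0.10. The relatives Slc36a4, Slc38a6 and Slc38a10 had log2 folds of -0.02, -0.06 and 0.09. All 6 missed the threshold by limma, with adjusted p-values of 0.699 to 0.980. Slc38a5 and Slc38a8 (means 5.32 and 5.36) were just above the olfactory receptor level, and Slc36a2, Slc36a3, Slc38a3, Slc38a4 and Slc38a11 were not.

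Of the 11 SLC6 members that carry transmitters and osmolytes, Slc6a6, the taurine carrier, was the only one with a mean above 6. It read 8.69, 8.80 and 8.65 in wild-type arrays against 9.01, 8.93 and 9.20 in sanroque, with no overlap. The log2 fold of 0.33 ± 0.09 had an interval of 0.12 to 0.54 and missed the threshold (limma, adjusted p = 0.0829). It passed with quantile normalization (log2 fold 0.37, adjusted p = 0.0219) and with array weights (0.30, adjusted p = 0.0109). Slc6a2, Slc6a3, Slc6a8, Slc6a9 and Slc6a11, which carry noradrenaline, dopamine, creatine, glycine and GABA, had means of 5.07 to 5.50 and log2 folds of -0.16 to 0.03. The other 5 were not above the olfactory receptor level.

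The 31 members not above that level differed little, with log2 folds from -0.22 to 0.18. In the main analysis 0 passed by limma or at an unadjusted p below 0.05. With array weights Slc7a11 (log2 fold 0.18 without them) passed. Their mean over the 6 arrays was not above the mark, which does not show that a gene is silent. In a single genotype only the wild-type mean of Slc1a7 (5.08) exceeded the mark.

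Genes of the pathways that use the imported amino acids were counted from lists of 172 genes, of which 157 were measured. Of the 157, 9 rose and 7 fell, or 10.2%, against 5.77% of all genes. The 157 were mostly well measured, with 87.9% above the olfactory receptor level, and of all genes above that level 8.68% passed. Single arrays mattered to this count: it was 3, 4 and 13 with wild type replicate 1, 2 or 3 left out, and 9, 2 and 11 with sanroque replicate 1, 2 or 3 left out.

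The largest rise among these genes was in Asns, the asparagine synthetase that makes asparagine from aspartate and glutamine. It read 4.37, 4.50 and 4.38 in wild-type arrays against 5.66, 5.85 and 5.59 in sanroque, a log2 fold of 1.29 ± 0.09 (SE; limma, adjusted p = 0.00176) that passed without each array in turn. Wild-type arrays lay below the olfactory receptor level and sanroque arrays above it. How far background signal affects the size of the fold was not tested. Of the 22 genes of the amino acid stress response, only Asns and Cebpb (log2 fold 0.66 ± 0.10) rose and 0 fell. Atf4 (-0.32), Ddit3 (0.09) and Trib3 (-0.08) did not pass. Cebpb is also a myeloid gene, and it missed the threshold when replicate 1 or 2 of either genotype was left out (limma, adjusted p = 0.0530 to 0.0981).

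Of 34 genes of amino acid sensing and mTORC1, 2 rose and 3 fell, with a median log2 fold of -0.12. This was 14.7%, against 5.77% of all genes and 8.68% of genes above the olfactory receptor level. The groups did not overlap for 17 of the 34 (50.0%), 6 higher and 11 lower. That share was 22.7% of all genes and 29.9% of genes above the level. By limma 14 of the 34 had an unadjusted p below 0.05, as did 3766 of all 19938 genes. Castor1, a cytosolic arginine sensor that restrains mTORC1, read 6.80, 6.85 and 7.15 in wild-type arrays against 7.67, 7.69 and 7.60 in sanroque (log2 fold 0.72 ± 0.10; limma, adjusted p = 0.0132). Sesn1, of the leucine-sensing sestrin family, went down from 9.69, 10.01 and 9.93 to 9.21, 9.08 and 9.31 (log2 fold -0.68 ± 0.10; limma, adjusted p = 0.0163). Both calls were lost when sanroque replicate 2 was left out (limma, adjusted p = 0.0523 for Castor1 and 0.0602 for Sesn1). Castor1 also lost it without the first wild-type array (0.0703), and Sesn1 without the second (0.0512). Smaller changes were a rise of Fnip2 (0.34) and falls of Rheb (-0.40), the GTPase that switches mTORC1 on, and Seh1l (-0.34). When single arrays were left out, Rheb and Seh1l passed only without wild type replicate 3, and Fnip2 only without wild type or sanroque replicate 3 (highest adjusted p-values by limma 0.173, 0.168 and 0.164).

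Of 20 other amino acid and peptide carriers, Slc15a3, a lysosomal carrier of histidine and dipeptides in immune cells, was the only one that passed. It rose from 5.89, 5.80 and 5.89 to 7.26, 6.71 and 6.93 (log2 fold 1.11 ± 0.13; limma, adjusted p = 0.00695), also without each array in turn. The myeloid list rose on the same arrays, and its part in this rise was not tested. Among partner proteins, Emb (embigin), an ancillary chain of carriers, fell by 0.38 on the log2 scale (limma, adjusted p = 0.0264), which also missed the threshold when replicate 1 or 2 of either genotype was left out (0.0799 to 0.133).

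Enzymes showed scattered calls of small size. Wars, the tryptophanyl-tRNA synthetase, which interferon gamma induces, rose by 0.70 ± 0.13 and Farsb fell by 0.33 among 18 synthetases. Gfpt1 (0.64) and Got2 (0.38) rose among 11 glutamine and glutamate enzymes, and Arg2 (0.33) among 13 enzymes of arginine, proline and polyamines. Arg2 averaged 4.65 and was not above the olfactory receptor level in either genotype. Mat2b and Mtap, of methionine metabolism, fell by 0.34 and 0.37 among 14 enzymes. These calls were near the threshold: when single arrays were left out, Wars, Gfpt1 and Got2 passed only without sanroque replicate 1, Mtap only without sanroque replicate 3, Arg2 and Mat2b only without wild type replicate 3, and Farsb in no case (highest adjusted p-values by limma, in that order, 0.123, 0.145, 0.159, 0.171, 0.162, 0.193 and 0.158). The 9 branched-chain amino acid enzymes had 0 calls by limma, and 2 at an unadjusted p below 0.05, with Bckdha (-0.35) and Bcat2 (-0.25) nearest the threshold. The 11 regulators had 0 calls and 3 at an unadjusted p below 0.05, with Hif1a (0.47) and Nedd4l (-0.39) nearest. With array weights Bckdha, Bcat2, Hif1a and Nedd4l passed (limma, adjusted p = 0.00407, 0.00857, 0.00752 and 0.00984), and with quantile normalization Hif1a did (0.0445). Myc, which drives transporter genes in activated T cells, read 10.40 ± 0.11 in wild-type arrays against 10.30 ± 0.12 in sanroque (log2 fold -0.10 ± 0.09).

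**Figure D4:**
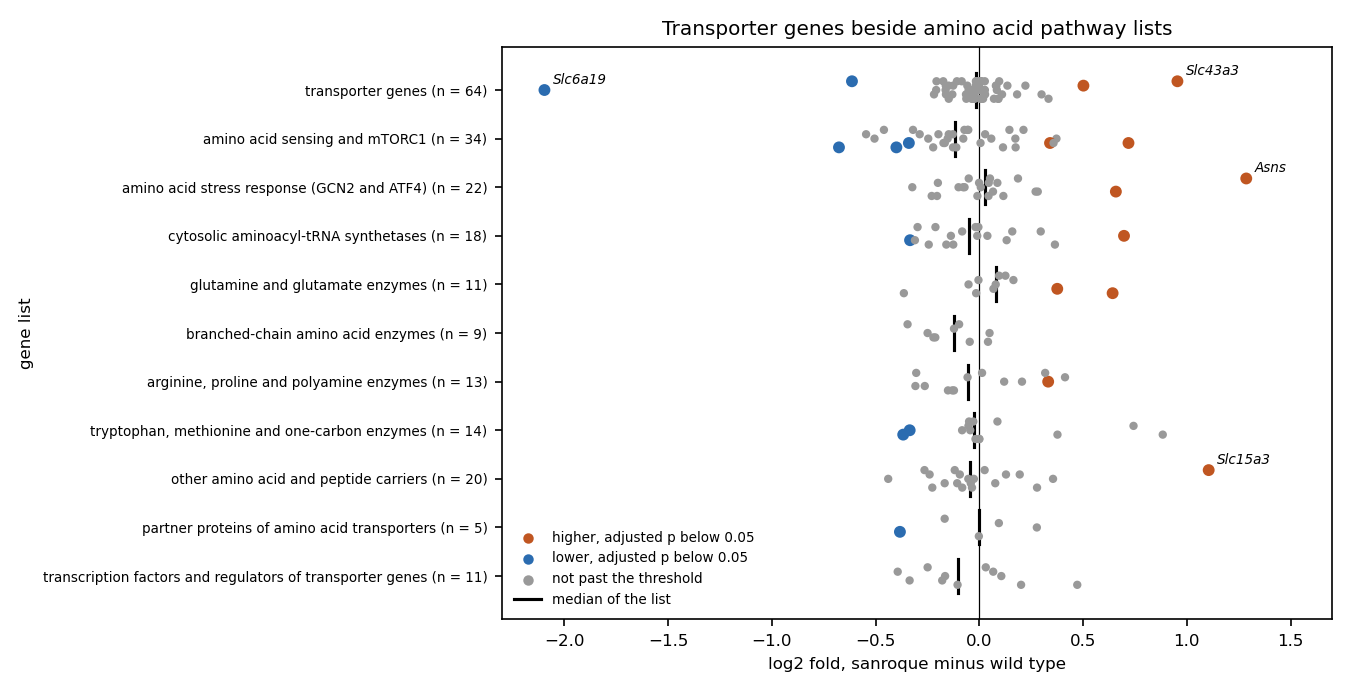
Log2 fold of sanroque minus wild type (horizontal axis) for the 64 members and for each gene of the 10 pathway lists (points), with the median of each list as a bar. Most points lie within 0.5 of 0, and Slc6a19 at -2.10, Asns at 1.29, Slc15a3 at 1.11 and Slc43a3 at 0.95 lie farthest out among the called genes.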

How the data were processed

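RNA levels were measured on 6 Affymetrix arrays. Intensity values on a linear scale, 1 for each probe set, were deposited by the authors and ran from 9.56 to 31996, with array medians of 53.6 to 56.9. The submitters' processing notes name Partek. How background was corrected and arrays were normalized is not given in the sources used here. Precision is limited by the number of arrays.

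Values were put on log2. Of 35399 probe sets, 21789 had exactly 1 gene symbol, 1621 several, and the annotation did not list 11989. Old symbols were replaced from the GRCm38.p6 gene table, which matched 19856 of 19938 genes. Each gene used its probe set of highest mean. Genotypes were compared with limma 3.58.1 (R 4.3.3; lmFit and eBayes, two-sided, 3 against 3, no filter on dim genes), with Benjamini-Hochberg adjustment over all genes and checked on simulated data. P-values rest on the spread between these samples, with each gene's variance drawn by limma toward that of all genes. Intervals are limma's 95%. Samples were grouped by genotype from their titles.

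Members and lists were chosen with earlier results of these data known. Named were all called members, those above the olfactory receptor level whose groups did not overlap, the 10 of highest mean, and carriers described in T cells. Pathway lists gave up to 4 called genes of largest fold, or the 2 of smallest p; Seh1l, Atf4, Ddit3, Trib3, Myc, Cltrn, Anpep and other members and neighbours were named beyond this rule. The score of other cells is the mean of an array's B cell and myeloid list medians. It did not overlap between genotypes, so fits with it as a covariate cannot separate score from genotype. Alternatives covered probe set choice, dim filters, normalization, a pseudocount of 32, variance models, array weights, a fold minimum of 1.5, the replicate block, that score and leaving out arrays. Figures were drawn with matplotlib 3.10.9.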

Additional observations from a re-analysis of the deposited data

How the results depend on the processing

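The Slc6a19 fold was negative in all 20 alternatives (-2.41 to -1.86) and passed in 16. It missed the threshold by ANOVA without moderation (-2.10, adjusted p = 0.129), with a fold minimum of 1.5 (-2.10, 0.0540), with the score of other cells as a covariate (-2.20, 0.650) and without both sanroque replicate 1 and wild type replicate 2 (-1.88, 0.0601). Leaving out single arrays gave -2.41 to -1.91. Slc7a6os passed in 18 of 20, Slc43a3 in 15 of 20 and Slc43a1 in 7 of 19.

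Members called higher, 2 in the main analysis, numbered 4 with quantile normalization and with array weights. They numbered 1 among genes of mean log2 of at least 6, with median centring and with the pseudocount. They numbered 0 by ANOVA, with the fold minimum, with the covariate and without the 2 arrays, and 1 to 2 leaving out single arrays. Members called lower, 2, numbered 4 with array weights, 1 by ANOVA and without the 2 arrays, and 0 with the fold minimum and with the covariate. The median fold of the members, -0.02, was 0.17 with the covariate, which moves the median of all genes to 0.09. The count of 33 members above the olfactory receptor level was 18 at a mark of 6 and 17 at the 99th percentile.

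Genes called among all genes, 1151, numbered 631 with median centring, 4 by ANOVA, 4733 with array weights, 76 with the fold minimum, 0 with the covariate (1539 at an unadjusted p below 0.05), 353 without the 2 arrays and 218 to 1315 leaving out single arrays. Pathway genes called, 16, numbered 25 with quantile normalization, 5 with median centring, 0 by ANOVA, 62 with array weights, 1 with the fold minimum, 0 with the covariate, 5 without the 2 arrays and 2 to 13 leaving out single arrays. The cause was not tested.

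With the replicate number as a block, 301 genes, 0 members higher, 2 members lower and 2 pathway genes passed, and Slc6a19 stayed at -2.10 (adjusted p = 0.0157). Deviations from the group means had correlations of -0.05, -0.16 and -0.36 between same-numbered arrays. The labels do not say whether the numbers pair the samples. With 3 arrays per genotype these correlations cannot settle it.

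Signs turned in 6 uncalled genes. Slc38a2 ran from -0.16 to 0.054 without single arrays and was 0.097 without the 2. Slc3a2 ran from -0.092 to 0.028 without single arrays and was 0.053 without the 2. Slc43a2 was -0.021 with median centring and -0.58 with the covariate, and ran from -0.052 to 0.14 without single arrays. With the covariate Slc6a6 (0.33 without it) was -0.01, Slc7a4 (-0.21) was 0.27 and Bcat2 (-0.25) was 0.26.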
